A study of Mus musculus with 6 samples.

Results

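The AP-1 and immediate early genes described here are Fos, Fosb, Fosl1, Fosl2, Jun, Junb, Jund, Atf3, Egr1 and Ier3. They were chosen by gene name and are 10 of the 78298 genes in the count table. Their transcripts were measured by RNA sequencing in RENCA cells, an established mouse renal adenocarcinoma line. The oe-AQP1 group (n = 3) carried a lentivirus with the mouse Aqp1 coding sequence, which encodes the water channel aquaporin-1, under the ubiquitin C promoter. The oe-NC group (n = 3) carried the same puromycin-resistance vector without an insert. Both groups were transduced for 48 h and then selected in puromycin at 2 µg/mL for 14 days, so all 6 samples hold an integrated vector and a selected cell pool, and cells without a vector were not analysed here. The labels place all 6 samples in batch 1 and do not say that they came from separate cultures, so p-values measure only the spread between these samples.

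AP-1 is a family of dimeric transcription factors that bind the sequence TGACTCA and related sites. A JUN protein can pair with another JUN or with a FOS protein, whereas FOS proteins need a JUN partner. Fos, Fosb, Junb, Atf3, Egr1 and Ier3 are classical immediate early or early stress genes, transcribed within minutes of a growth factor, cytokine or stress signal through factors already present in the cell, and their induction is usually short. Jund is transcribed more steadily in most cells, and Fosl1 and Fosl2 encode FOS proteins without the strong activation domain of Fos. The samples were taken from growing stable lines, so the values describe standing transcript levels and not a response timed from a stimulus.

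Each sample held between 18385714.02 and 21920898.67 expected counts. Levels are given as CPM, which scales each sample's counts to the same library total, after TMM scaling, a method that sets the bulk of genes to a shared level. For Aqp1 the oe-AQP1 samples held 7713, 8545 and 7838 counts against 41, 25 and 45 in oe-NC, which matches the labels. Of 8 renal epithelial markers, 7 reached 1 CPM, with Epcam at 0 in all 6 samples. With all 6 samples, 4 of the 7 fell (Cdh1, Cdh16, Krt8 and Krt18, log2 fold changes -0.86, -0.63, -0.41 and -0.27) while 0 rose. Without oe-NC sample 1, described below, 4 fell and 1 rose (Pax2, log2 fold change 0.41). Over all genes tested, 16.6% fell and 16.0% rose with all 6 samples, and 20.7% and 19.4% without oe-NC sample 1. Of 7 macrophage markers, Ptprc, Adgre1, Itgam and C1qa were at or near 0. Cd68 was at 33.8 CPM in oe-AQP1 against 30.6 in oe-NC, and Lyz2 (11.9 against 17.1 CPM) and Csf1r (3.3 against 9.43 CPM) fell. The list summed to 47.7 to 51 CPM in oe-AQP1 and 55.7 to 58.8 CPM in oe-NC. The sums were 56.6 to 58.7 against 51.6 to 65.7 CPM for 6 fibroblast markers, with Dcn, Thy1 and Pdgfra at or near 0, while Pdgfrb rose (44.7 against 35.4 CPM) and Col1a1 fell (12.5 against 21.1 CPM). They were 2.02 to 2.87 against 1.86 to 2.39 CPM for 5 endothelial markers, none of which passed the test. The counts of macrophage, fibroblast and endothelial markers that rose or fell were the same without oe-NC sample 1. The part of these markers in the results was not tested.

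The first oe-NC sample stood apart from the other control samples. The chi-square distance per gene was 9.81 and 11.4 between this sample and oe-NC samples 2 and 3, and 1.71 to 2.04 between the other pairs of the same group. The difference moved with the GC content of the transcripts. From the GC-poorest to the GC-richest of 4 equal classes of 2438 genes each, the median log2 ratio of oe-NC sample 1 to the other controls was -0.12, -0.03, 0.06 and 0.18, while that of oe-NC sample 2 to sample 3 lay between 0 and 0.01. Of the 10 genes, 7 were in the GC-richest class, and oe-NC sample 1 was the highest control for 9 of the 10, against 40% of all genes tested. Each of the 10 genes and the counts of each list are therefore also given without this sample. The part of GC content in it was not tested.

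Egr1, Fos, Junb and Atf3 rose in the oe-AQP1 cells, 4 of the 10 genes. The increase was 1.81-fold for Egr1 and between 1.3-fold and 1.46-fold for the others, and in each of them every oe-AQP1 sample was above every oe-NC sample. A fall passed the test for 0 of the 10 genes by limma-voom (edgeR's quasi-likelihood test called 1, Fosl1, and 2, Fosl1 and Jund, had an unadjusted p under 0.05). The calls used a Benjamini-Hochberg adjusted p (FDR) under 0.05 over 15522 genes tested. All 10 genes passed the filter on low counts. The background was high, with 32.5% of all genes called, 16.0% higher and 16.6% lower. No overlap between groups was seen for 4 of the 10 genes in the higher direction, against 23.5% of all genes, and for 2 in the lower direction, against 23.8%. The median log2 fold change (log2FC) was 0.14 over the 10 genes and 0.002 over all genes. None of the 10 had an absolute log2FC above 1, the study's second criterion, which 5.23% of all genes met together with the FDR. Without oe-NC sample 1, Jun joined the genes that rose and Jund fell, which made 5 and 1 of 10 against a background of 19.4% and 20.7% of all genes in these directions and 40.1% in either. The median became 0.27, and none of the 10 had an absolute log2FC above 1, against 5.54% of all genes. A change in the share of cells that transcribe a gene and a change in RNA per cell cannot be told apart in bulk samples.

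**Figure D1:**
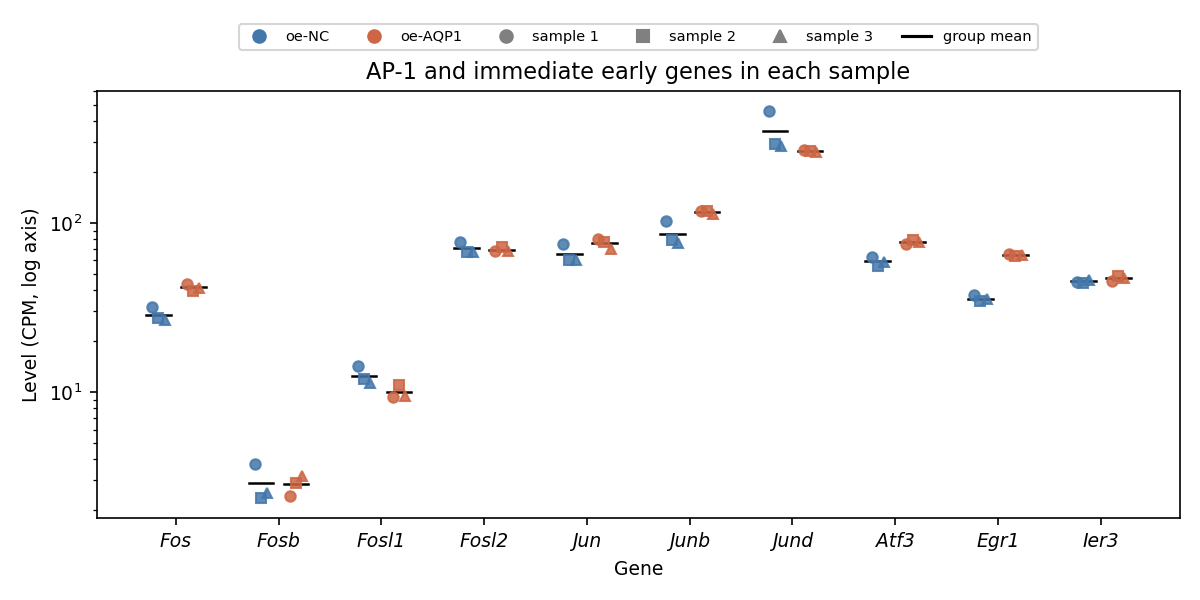
Level of each gene in each of the 6 samples in CPM on a log axis, with oe-NC in blue, oe-AQP1 in orange, 1 marker shape per sample number and a black line at the group mean. The groups are apart for Fos, Junb, Atf3 and Egr1, where oe-AQP1 is higher, and for Fosl1 and Jund, where it is lower.

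Promoter sequences are shown for the genes that rose and have an entry in the RefSeq promoter table, Fos, Junb and Atf3, and for Jun and Fosb, their closest relatives with a matched motif. The table, on build GRCm38, held 8 of the 10 genes. Egr1 and Fosl1 had no entry. Each stretch is the 150 bases before the RefSeq start, 5′ to 3′ in the direction of transcription, and each matched GRCm39 exactly at 1 place: Fos at chr12:85520514-85520663 (plus strand), Junb at chr8:85705378-85705527 (minus), Atf3 at chr1:190915531-190915680 (minus), Jun at chr4:94940460-94940609 (minus) and Fosb at chr7:19043971-19044120 (minus). The RefSeq starts of Atf3 and Fosl2 lie inside the genes as GENCODE annotates them, downstream of the outermost start, and the window of Jund lies wholly upstream of its GENCODE gene. Capitals mark the motif matches described next.
Fos: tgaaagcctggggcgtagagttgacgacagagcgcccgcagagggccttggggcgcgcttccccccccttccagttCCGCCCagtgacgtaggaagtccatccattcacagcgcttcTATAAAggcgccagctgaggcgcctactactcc
Junb: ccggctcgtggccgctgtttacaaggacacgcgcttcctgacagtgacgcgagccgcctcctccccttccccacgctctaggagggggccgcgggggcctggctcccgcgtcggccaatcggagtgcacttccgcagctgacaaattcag
Atf3: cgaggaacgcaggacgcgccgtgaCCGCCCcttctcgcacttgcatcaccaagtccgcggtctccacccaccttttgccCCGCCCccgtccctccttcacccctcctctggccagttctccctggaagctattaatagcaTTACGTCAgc
Jun: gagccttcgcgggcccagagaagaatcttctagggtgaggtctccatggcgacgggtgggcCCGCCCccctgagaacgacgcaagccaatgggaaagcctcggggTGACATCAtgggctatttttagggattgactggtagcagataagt
Fosb: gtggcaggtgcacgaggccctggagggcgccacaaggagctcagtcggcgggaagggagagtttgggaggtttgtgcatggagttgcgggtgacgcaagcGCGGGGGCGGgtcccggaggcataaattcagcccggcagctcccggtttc

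Motifs were searched, on both strands unless said otherwise, in the whole table window, 250 bases before to 50 bases after the start, in the 8 genes and in all 32851 promoters. The sites that bind CREB and ATF proteins were searched as TGACGTCA (in 1.79% of all promoters) and as TTACGTCA or its reverse complement TGACGTAA (0.499%). The latter was present in Atf3, first base 10 before the start. The AP-1 site was searched as TGACTCA or TGAGTCA (5.2%), and the variant site known from the Jun promoter as TGACATCA or TGATGTCA (3.62%), which was present in Jun, first base 45 before the start. The site of the EGR zinc-finger proteins was searched as GCGGGGGCG or CGCCCCCGC (2.91%) and was present in Fosb, 50 before the start, and in Fosl2, 79 before the start, in both overlapping a GC box. The GC box, bound by SP proteins, was searched as GGGCGG or CCGCCC (35.7%) and was present in Fos, Fosb, Fosl2, Jun, Atf3 and Ier3. The TATA box was searched as TATAAA in the direction of transcription alone (8.32%) and was present in Fos, 33 before the start. In Junb it began at the RefSeq start itself, which lies upstream of the Junb gene as GENCODE annotates it. The kappaB site, bound by NF-kappaB (8.46%), was matched in Fos, Fosb, Fosl2 and Ier3, in Ier3 overlapping the GC box. The CArG box, bound by SRF (1.63%), TGACGTCA and the AP-1 site were not matched in the 8 windows. Sites outside these windows, or with letters other than those searched, would not be matched. The search therefore cannot show that these genes lack such sites. A match is a run of letters and not a measured binding site.

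Among the 4 FOS genes, Fos rose. Its level was 43.5, 39.8 and 41.3 CPM in oe-AQP1 samples 1 to 3 and 31.8, 27.4 and 26.6 CPM in oe-NC samples 1 to 3. All oe-AQP1 samples were above all oe-NC samples, of which oe-NC sample 1 was the highest. The log2FC of Fos was 0.54 ± 0.07 (SE, limma-voom FDR = 3.10e-04, 95% confidence interval 0.38 to 0.71), and 0.62 without oe-NC sample 1 (FDR = 4.63e-08). Fos lies on chr12:85520658-85524047, and its counts were whole numbers in every sample.

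Fosl2, a FOS protein of steadier expression, was at 68, 71.9 and 68.5 CPM in oe-AQP1 and 77.4, 67.6 and 67.5 CPM in oe-NC. The groups overlapped, with oe-NC sample 1 as the highest of all 6 samples. Its log2FC was -0.02 (95% confidence interval -0.16 to 0.11, limma-voom FDR = 0.788) and 0.04 without oe-NC sample 1, so a change as large as that of Fos lies outside both intervals.

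Fosl1, which encodes FRA-1, was at 9.36, 11 and 9.53 CPM in oe-AQP1 and 14.3, 11.9 and 11.3 CPM in oe-NC. Every oe-AQP1 sample was below every oe-NC sample, but the gap between oe-AQP1 sample 2 and oe-NC sample 3 was small. The log2FC was -0.32 ± 0.11 (limma-voom FDR = 0.0511) with 6 samples and -0.22 (FDR = 0.0947) without oe-NC sample 1, and neither passed the threshold. The Fosl1 counts were partly fractional, and the gene overlaps Ccdc85b on the opposite strand, whose counts were 335.9, 419.13 and 347.21 in the oe-AQP1 samples and 396.22, 345.2 and 391.78 in the controls. The strand setting of the counting is not given in the sources used here, so reads of both genes cannot be told apart where they overlap.

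Fosb was the least abundant member, at 48, 64 and 66 counts in the oe-AQP1 samples against 74, 43 and 54 in the controls. Its level was 2.43, 2.91 and 3.21 CPM in oe-AQP1 and 3.77, 2.35 and 2.53 CPM in oe-NC, and the groups overlapped. The log2FC was 0.01 with a 95% confidence interval from -0.45 to 0.46 (limma-voom FDR = 0.986), so a change of the size seen in Junb or Atf3 was not detectable at this depth. Without oe-NC sample 1, which was at 154% of the mean of the other controls, the log2FC was 0.21 (-0.23 to 0.65, FDR = 0.462).

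Among the 3 JUN genes, Junb rose. Junb encodes a JUN protein that activates transcription more weakly than Jun and competes with it for partners. Its level was 117, 118 and 113 CPM in oe-AQP1 and 103, 78.8 and 76.4 CPM in oe-NC. The groups were apart, although oe-NC sample 1 came closer to the oe-AQP1 samples than to the other controls. The log2FC was 0.44 ± 0.09 (limma-voom FDR = 0.00475) and 0.58 ± 0.04 without oe-NC sample 1 (FDR = 8.43e-11). Junb (chr8:85701113-85705359) overlaps Prdx2 on the opposite strand, whose counts ran from 1840 to 2212 in the oe-AQP1 samples and from 1809.94 to 2201 in the controls. As for Fosl1, reads of Junb and Prdx2 cannot be told apart where the genes overlap.

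Jun, the founding AP-1 protein, was at 80.3, 76.8 and 70.3 CPM in oe-AQP1 and 74.9, 60.5 and 60.3 CPM in oe-NC. The groups overlapped through oe-NC sample 1, which lay above oe-AQP1 sample 3. The log2FC was 0.22 ± 0.08 (limma-voom FDR = 0.0698). Without oe-NC sample 1 the groups no longer overlapped and the log2FC was 0.32 ± 0.05 (FDR = 2.41e-05), so the call for Jun in this fit turned on this control. It turned on the model too. With all 6 samples Jun passed with DESeq2 (FDR = 0.0498), with sample quality weights (FDR = 5.18e-04) and with a replicate block (FDR = 0.016). Jun overlaps Junos, an antisense transcript whose counts were 66, 67 and 77 in the oe-AQP1 samples and 37, 46 and 63 in the controls. Reads of Jun and Junos cannot be told apart where they overlap either.

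Jund was at 269.6, 266 and 264 CPM in oe-AQP1 and 461, 294 and 286 CPM in oe-NC. The oe-AQP1 samples were nearly equal and lay below all controls, while oe-NC sample 1 was at 159% of the mean of the other 2 controls, the highest ratio among the 10 genes. The log2FC was -0.34 ± 0.15 (limma-voom FDR = 0.104) with all samples. Without oe-NC sample 1 the difference shrank to -0.12 ± 0.02 and passed the threshold (FDR = 2.61e-04). Jund also had the highest GC content of the 10 genes, 67.2%, and its counts were partly fractional.

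**Figure D2:**
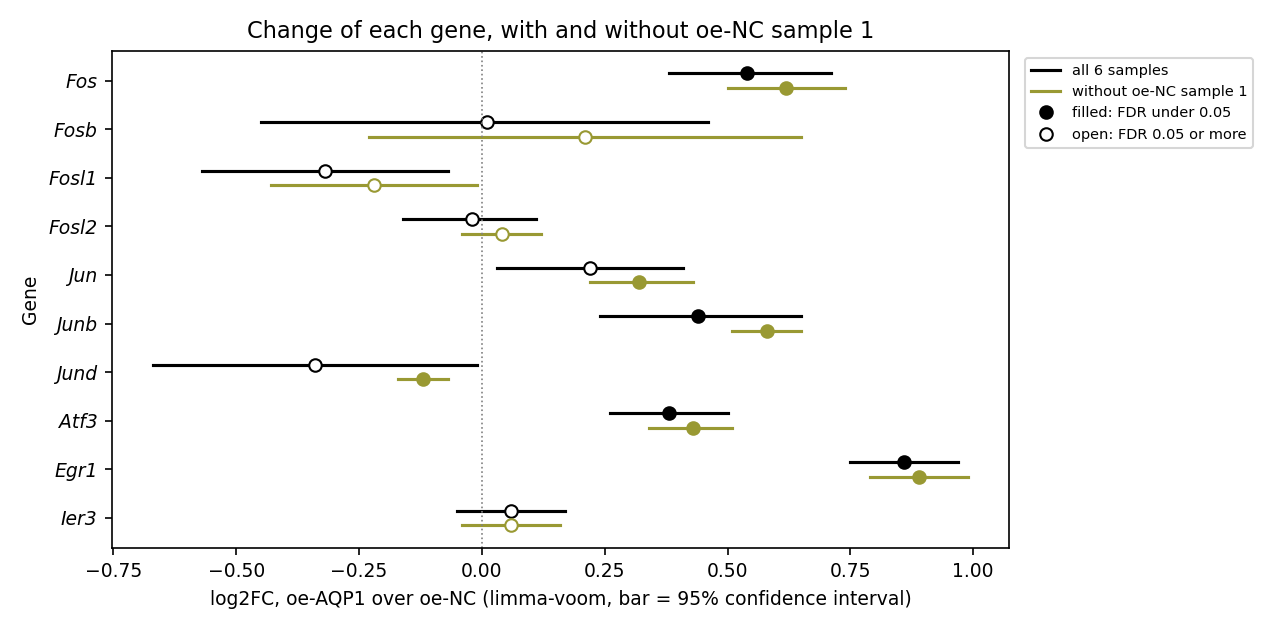
Log2FC of each gene, oe-AQP1 over oe-NC, by limma-voom with all 6 samples (black) and without oe-NC sample 1 (olive), with 95% confidence intervals and filled points where the FDR is under 0.05. Leaving out this sample moved Jund from -0.34 to -0.12 and Jun from 0.22 to 0.32, while Egr1 stayed at 0.86 and 0.89.

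Egr1 had the largest change of the 10. It encodes a zinc-finger transcription factor that is induced alongside Fos by growth factors and stress but is not itself part of AP-1. Egr1 was at 65.8, 63.8 and 64.5 CPM in oe-AQP1 and 37.4, 34.3 and 35.3 CPM in oe-NC. The groups were far apart, and oe-NC sample 1 was only slightly above the other controls, at 108% of their mean. The log2FC was 0.86 ± 0.05 (limma-voom FDR = 6.42e-07, 95% confidence interval 0.75 to 0.97), and 0.89 without oe-NC sample 1 (FDR = 9.68e-12). This interval did not overlap those of Fos, Junb and Atf3.

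Atf3 encodes a stress-induced bZIP protein that can pair with JUN proteins and represses transcription as a homodimer. It was at 75.1, 78.9 and 76.7 CPM in oe-AQP1 and 63.2, 55.9 and 58.5 CPM in oe-NC, and every oe-AQP1 sample was above every control. The log2FC was 0.38 ± 0.05 (limma-voom FDR = 4.12e-04), and 0.43 without oe-NC sample 1 (FDR = 9.20e-08). Atf3 (chr1:190902493-190950241) had the lowest GC content of the 10 genes, 50.4%.

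Ier3 encodes a small stress-induced protein that modulates cell death and is not a transcription factor. It was at 45.5, 48.8 and 47.3 CPM in oe-AQP1 and 44.9, 44.4 and 46.2 CPM in oe-NC. The groups overlapped, and oe-NC sample 1 lay between the other controls. The log2FC was 0.06 with a 95% confidence interval from -0.05 to 0.17 (limma-voom FDR = 0.366), an interval that lies below those of Egr1, Fos, Junb and Atf3. Its log2FC was 0.06 without oe-NC sample 1 as well.

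**Figure D3:**
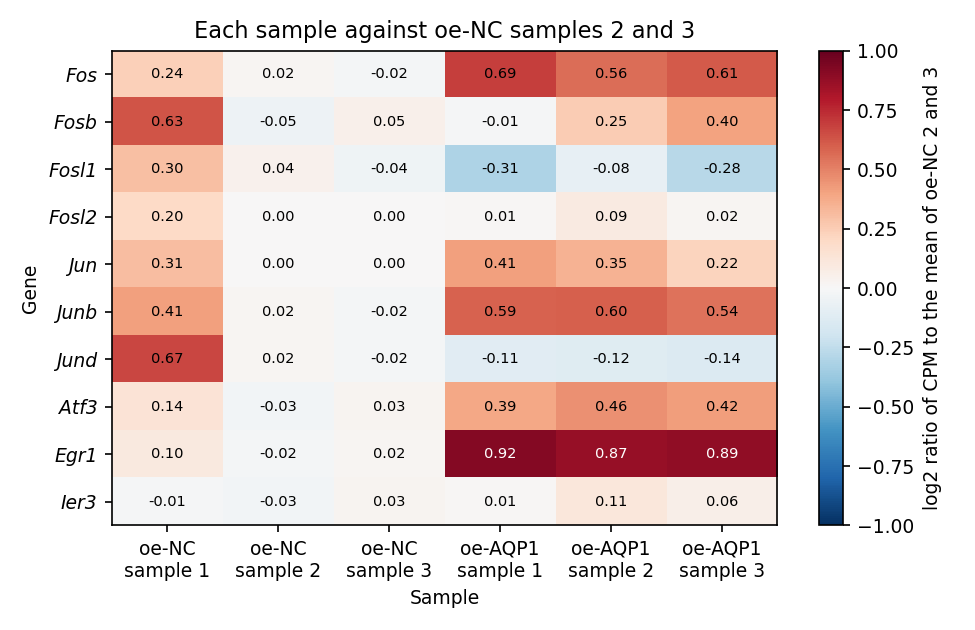
Log2 ratio of each sample's CPM to the mean of oe-NC samples 2 and 3, for the 10 genes in rows and the 6 samples in columns, in red above and blue below that mean. The column of oe-NC sample 1 reaches 0.67 for Jund, 0.63 for Fosb and 0.41 for Junb, and the oe-AQP1 columns are at 0.87 to 0.92 for Egr1.

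The makeup of each family was compared on a per-length scale (TPM, the deposited counts divided by exon length and scaled to the same total in each sample), since CPM favours long transcripts. Fos made up 61.5%, 56.9% and 59.8% of FOS family transcripts in the oe-AQP1 samples and 47.2%, 47.7% and 47.5% in the oe-NC samples. Fosl1 held 16.5% ± 1.51 (SD, n = 3) in oe-AQP1 and 24.1% ± 0.582 in oe-NC, and Fosl2 held 22.5% ± 0.738 and 26.7% ± 0.642. The groups were apart for these 3 shares, including oe-NC sample 1, whose Fos share lay with those of the other controls. Fosb held 1.54% ± 0.23 and 1.79% ± 0.291, and its groups overlapped. In the JUN family, Junb held 20.9% ± 0.186 in oe-AQP1 and 13.8% ± 1.07 in oe-NC, and Jun held 10.2% ± 0.505 and 7.89% ± 0.903. The share of Jund was 68.5%, 68.5% and 69.5% in oe-AQP1 and 80.5%, 77.2% and 77.1% in oe-NC. The groups were apart for all 3 JUN shares. The difference in share without oe-NC sample 1, oe-AQP1 minus oe-NC, was 11.8 percentage points for Fos, 6.49 for Junb and -8.3 for Jund. Shares within a family are not independent, because a gain of Fos or Junb lowers the others. With 3 samples against 3, the two-sided exact permutation test cannot go below p = 0.1, which each of the shares other than that of Fosb reached (Benjamini-Hochberg adjusted p = 0.129 over 9 tests). For Fosb the exact permutation p was 0.5.

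**Figure D4:**
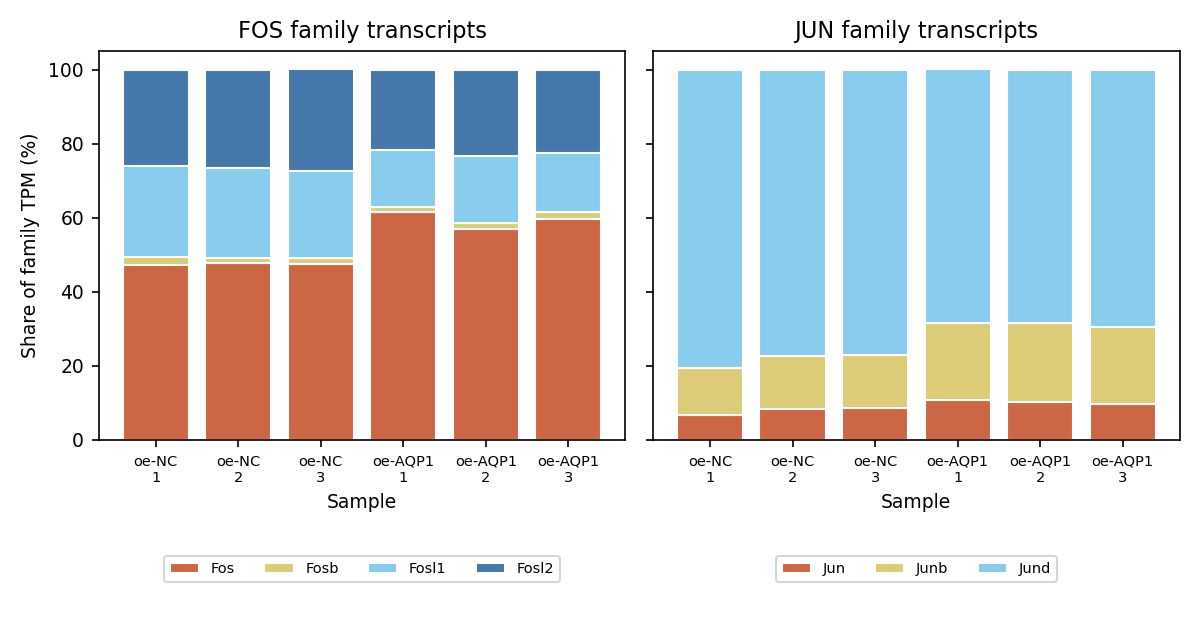
Share of each gene in its family's TPM in every sample, as stacked bars in percent, with the FOS family on the left and the JUN family on the right. Fos takes 56.9% to 61.5% in the oe-AQP1 samples against 47.2% to 47.7% in the controls, and Jund takes 68.5% to 69.5% against 77.1% to 80.5%.

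The summed level of the 4 FOS genes was 120.1, 119.7 and 118 TPM in oe-AQP1 and 114, 93.4 and 90.2 TPM in oe-NC. The groups were apart, with oe-NC sample 1 close to the oe-AQP1 samples (exact permutation p = 0.1, adjusted p = 0.129). The 3 JUN genes summed to 946, 941 and 922 TPM in oe-AQP1 and 1371, 877 and 845 TPM in oe-NC. Here the oe-AQP1 samples lay between oe-NC sample 1 and the other controls (exact permutation p = 1). JUN transcripts outnumbered FOS transcripts in every sample.

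In order of level per length, the oe-AQP1 means were 644 TPM for Jund, 196 for Junb, 167 for Ier3, 127 for Atf3, 95.7 for Jun, 71 for Fos, 57.9 for Egr1, 26.9 for Fosl2, 19.7 for Fosl1 and 1.84 for Fosb. The ranges over samples of neighbours in this order did not overlap. In oe-NC the means were 811 TPM for Jund, 154 for Ier3, 141 for Junb, 94.2 for Atf3, 79.5 for Jun, 47.1 for Fos, 30.8 for Egr1, 26.5 for Fosl2, 23.9 for Fosl1 and 1.8 for Fosb. In that group the ranges overlapped between Ier3 and Junb, between Atf3 and Jun, between Egr1 and Fosl2, and between Fosl2 and Fosl1. Each of these overlaps came from oe-NC sample 1, and in oe-NC samples 2 and 3 alone the same pairs were apart. In those samples Junb was at 127 and 122 TPM, below Ier3 at 149.7 and 154 TPM, whereas in oe-AQP1 Junb was above Ier3. Egr1 was at 29.3 and 29.8 TPM there, above Fosl2 at 24.9 and 24.7 TPM, and its mean was above that of Fosl2 in both groups.

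The patterns of Egr1 and Fos across the 6 samples were also compared with those of 9746 genes of at least 10 CPM, by the root mean square difference of log2 CPM after centring each gene. The nearest to Egr1 were Grn (0.027), which encodes progranulin, Zc3hav1 (0.028), an antiviral zinc-finger protein, and Nub1 (0.03). Grn was at 1052, 1048 and 1016 CPM in oe-AQP1 and 603, 559.9 and 588 CPM in oe-NC. The nearest to Fos were Rrbp1 (0.038), Hook2 (0.044) and Keap1 (0.044), the adaptor that targets NRF2 for degradation. Keap1 was at 64.5, 62.3 and 63.8 CPM in oe-AQP1 and 48.2, 39 and 40.8 CPM in oe-NC, with oe-NC sample 1 highest among the controls, as for Fos. The likeness rests on 6 samples in 2 groups and largely on the step between them.

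Of 11 other AP-1 and related bZIP genes, 10 were tested, 3 rose and 1 fell, beside backgrounds of 16.0% and 16.6%, with a median log2FC of 0.17. Batf2, which encodes a bZIP partner of JUN proteins known from interferon responses, had by far the largest change of this list. It was at 12.1, 12.5 and 12.9 CPM in oe-AQP1 and 3.16, 2.41 and 2.63 CPM in oe-NC (log2FC 2.19 ± 0.13, limma-voom FDR = 6.44e-07). The small MAF protein gene Mafk (log2FC 0.32, FDR = 0.00326) and Maf (0.20, FDR = 0.0356) also rose. Maff fell, at 51.8, 49.2 and 49.7 CPM in oe-AQP1 and 72.2, 57.7 and 61.2 CPM in oe-NC (log2FC -0.34, limma-voom FDR = 0.00743). Batf3 did not pass the low-count filter. Without oe-NC sample 1, 5 rose and 1 fell, beside 19.4% and 20.7% of all genes.

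Of 38 other immediate early genes, 35 were tested, 16 rose, 4 fell and 15 did not pass the test, beside backgrounds of 16.0% and 16.6%, with a median log2FC of 0.17. Gem, a small GTP-binding protein, was at 43.3, 43.4 and 40.7 CPM in oe-AQP1 and 22.2, 21.8 and 20.5 CPM in oe-NC (log2FC 0.98 ± 0.06, limma-voom FDR = 8.47e-07). Sgk1, a kinase induced by serum, glucocorticoids and cell shrinkage, was at 24.6, 21 and 24.4 CPM in oe-AQP1 and 13, 12.6 and 12.9 CPM in oe-NC (log2FC 0.86 ± 0.08, FDR = 3.44e-05). In both genes every oe-AQP1 sample was far above every control. Egr2, a relative of Egr1, rose as well (log2FC 0.89 ± 0.30, limma-voom FDR = 0.0454), but on 22 to 25 counts against 7 to 16. The largest falls were those of Ccn2 (log2FC -0.43, FDR = 6.28e-05), a matricellular protein, Dusp1 (-0.28, FDR = 0.00567), the phosphatase that switches off MAP kinases, and Bhlhe40 (-0.16, FDR = 0.0297). Egr3, Egr4 and Ptgs2 did not pass the filter, with at most 1 count in any sample. Without oe-NC sample 1, 21 rose and 4 fell, beside 19.4% and 20.7%, and the median log2FC was 0.31.

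**Figure D5:**
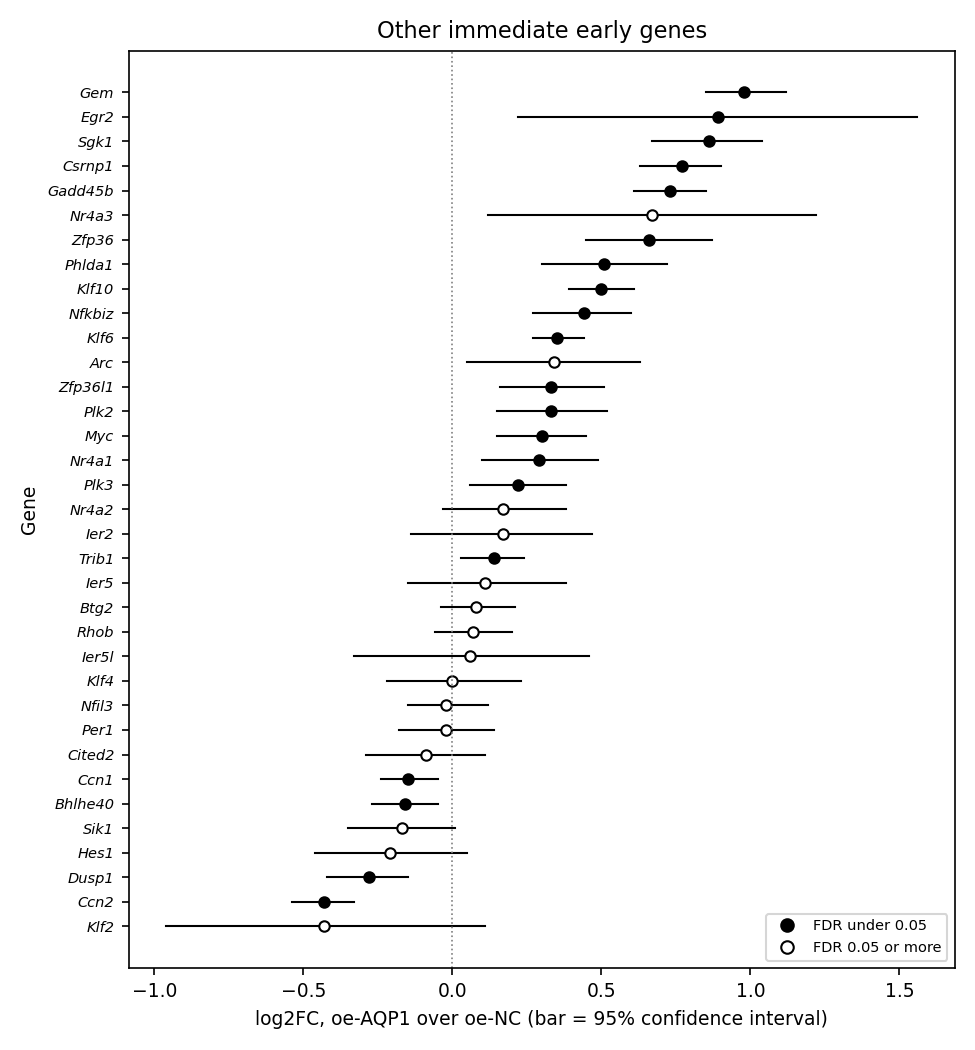
Log2FC, oe-AQP1 over oe-NC, of the 35 other immediate early genes tested by limma-voom with all 6 samples, with 95% confidence intervals and filled points where the FDR is under 0.05. The values run from -0.43 for Klf2 and Ccn2 to 0.98 for Gem, with 16 filled points on the right and 4 on the left.

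Of 24 kinases and transcription factors that act upstream of these genes, 23 were tested, 2 rose and 4 fell, beside the same backgrounds of 16.0% and 16.6%, with a median log2FC of -0.06. Map2k1, the kinase MEK1 that activates ERK, was at 131, 137 and 135 CPM in oe-AQP1 and 98.1, 96.3 and 94.2 CPM in oe-NC, with no overlap (log2FC 0.48 ± 0.04, limma-voom FDR = 9.34e-06). Map2k4 rose with a log2FC of 0.17 (FDR = 0.0495). The largest falls were those of Map3k5 (-0.33, limma-voom FDR = 0.00468), Map3k7 (-0.19, FDR = 0.0122) and Mapk3 (-0.18, FDR = 0.0119). Srf, whose product drives many immediate early promoters, had a log2FC of -0.17 (FDR = 0.202), and Map2k6 did not pass the filter. When oe-NC sample 1 was left out, 3 rose and 5 fell, beside 19.4% and 20.7%.

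Of 26 genes known as AP-1 targets, 18 were tested, 5 rose, 3 fell and 10 did not pass the test, beside backgrounds of 16.0% and 16.6%, with a median log2FC of 0.01. The counts were 6 and 3 without oe-NC sample 1, beside 19.4% and 20.7%. Ccl2, a monocyte chemokine, was at 625, 617 and 612 CPM in oe-AQP1 and 96.1, 104 and 107 CPM in oe-NC (log2FC 2.60 ± 0.04, limma-voom FDR = 3.03e-11). Tnf was at 16.1, 16.9 and 17.2 CPM against 4.43, 4.54 and 4.69 CPM (log2FC 1.87 ± 0.10, FDR = 2.14e-07). For these 2 cytokine genes oe-NC sample 1 was the lowest control. Il6 was counted 43, 43 and 41 times in the oe-AQP1 samples and 1, 1 and 0 times in the controls. Summed over each group, the counts were 127 and 2. Their ratio, after TMM scaling for library size, was 60.3 (exact 95% counting interval 16.4 to 504, which leaves out the spread between samples). By limma-voom its log2FC was 5.29 (95% confidence interval 4.28 to 6.29, FDR = 1.21e-05), which is 39-fold. Vegfa, the angiogenic growth factor, had a log2FC of -0.30 (limma-voom FDR = 0.013), or -0.19 without oe-NC sample 1, and Plaur, the urokinase receptor, of -0.22 (FDR = 0.00673), and both fell. Other factors act on these genes too, and binding of AP-1 was not measured. Ccnd1, cyclin D1, was at nearly equal levels, 1039 ± 1.49 and 1041 ± 16.5 CPM (SD, n = 3). The matrix metalloproteinase genes Mmp3, Mmp9, Mmp12 and Mmp13, and Prl2c2, Prl2c3, Areg and Ereg, did not pass the filter.

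Heat shock and handling stress genes were examined as well, since cell handling can induce immediate early genes. Of 10 such genes, 2 rose and 4 fell, beside backgrounds of 16.0% and 16.6%, with a median log2FC of -0.03 and sums of 5441 to 5491 CPM in oe-AQP1 and 5896 to 6104 CPM in oe-NC. Hspa1b rose with a log2FC of 0.35 (limma-voom FDR = 0.0298) and Dnajb1 with 0.14 (FDR = 0.0411). Hspb1 (-0.32, FDR = 2.20e-04), Hspd1 (-0.24, FDR = 1.71e-04) and Hsp90aa1 (-0.15, FDR = 0.00299) had the largest falls. With oe-NC sample 1 left out, 3 rose and 5 fell, beside 19.4% and 20.7%. The part of handling in the values of the 10 genes was not tested.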

How the data were processed

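RNA from 3 oe-AQP1 and 3 oe-NC samples of RENCA cells was sequenced by the authors from Illumina TruSeq libraries of total RNA, with no strand setting stated. The authors deposited expected counts per gene, unscaled between samples, beside annotation and columns of group means, a signal the authors had averaged over samples, that were not used here. The submitters' processing notes name fastp, HISAT2, featureCounts and Subread without versions and the builds GRCm38 and mm10, while the paper's methods name GRCm39. Of 78298 gene identifiers, 78168 were found in GENCODE M39 on GRCm39, the source of positions, lengths and GC contents. Fractional counts were found for 12789 genes (37.1% of those with reads), and how the reads were divided is not given in the sources used here. Groups and sample numbers were taken from the labels.

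Expected counts were rounded, genes kept with edgeR's filterByExpr by group, scaled by TMM and fitted with limma-voom (limma 3.58.1, edgeR 4.0.16, R 4.3.3), after the study's methods, with Benjamini-Hochberg adjustment over all genes kept. The fits were tested on simulated data, which held no outlying sample, no trend with GC content and fewer changed genes than were called here. Family shares were compared by exact permutation tests. The SE of log2FC was 0.05 to 0.2 for the 10 genes and rested on the spread between samples as well as on depth. The genes named are the 10 members, the 3 largest increases and decreases that passed the FDR in each list, those with an absolute log2FC above 1, and those that failed the filter. The values of 1 such gene are not reported here. Srf, Klf2 and Ccnd1 were named after their values were seen. The members and gene lists were chosen with earlier results of these data known. As alternatives, DESeq2 (1.42.0), edgeR's quasi-likelihood test, sample quality weights, 3 scalings, 2 filters, a replicate block, unrounded counts and leaving out each sample were tried.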

Additional observations from a re-analysis of the deposited data

How the results depend on the processing

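Of 401 values recomputed under 16 other settings and for shares without length, 345 were kept. A further 12 passed the threshold only in the alternative, 34 moved beyond the set margin and 10 turned in direction. A log2FC was kept if its direction and side of the threshold were unchanged, and a count or share if it stayed within the set margin. Kept counts could still differ: other immediate early genes that rose numbered 16 in the main fit and 11 to 22 in the alternatives. Over all genes tested, 2481 rose in the main fit and 1856 to 3125 in the alternatives. Egr1, Fos, Junb and Atf3 rose in every setting run, with log2FC from 0.83 to 0.89, 0.49 to 0.62, 0.36 to 0.58 and 0.34 to 0.43 when 1 sample was left out.

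Fosb, near 0, turned to -0.02 with edgeR's quasi-likelihood test and with DESeq2 and to -0.01 without a filter and with the replicate block, and ran from -0.11 to 0.21 when 1 sample was left out. Fosl2 turned to 0.03 with sample quality weights and ran from -0.06 to 0.04. Fosl1 passed the threshold at -0.33 with edgeR (FDR = 0.0471), at -0.32 with upper-quartile scaling (FDR = 0.0467) and at -0.33 with the replicate block, and ran from -0.40 to -0.22, passing without oe-NC sample 3 (FDR = 0.0331). Jun passed it at 0.22 with DESeq2 (FDR = 0.0498), 0.30 with quality weights and 0.22 with the block, and ran from 0.16 to 0.32. Jund passed it at -0.17 with quality weights and -0.35 with the block, and ran from -0.47 to -0.12, passing without oe-NC sample 1 and also without oe-NC sample 3 (FDR = 0.0389). The count of members that fell was 1 with edgeR, quality weights and upper-quartile scaling, 2 with the replicate block and 0 to 2 with 1 sample left out. Over all 15522 genes tested, 2594 fell with edgeR, 3315 with quality weights, 2598 with upper-quartile scaling and 2479 with the block. With 1 sample left out, 1745 to 3331 of 15830 to 16085 genes tested fell and 1856 to 3125 rose. Upstream genes that rose numbered 1 with DESeq2, upper-quartile scaling, no filter and the block, and 1 to 3 with 1 sample left out, and those that fell 2 to 5. Heat shock genes that rose numbered 1 with DESeq2, no filter and the block, and 0 to 3 with 1 sample left out. Over all 15522 genes tested, 1974 rose with DESeq2, 2464 with upper-quartile scaling and 2346 with the block, and 2134 of 34240 without a filter. With 1 sample left out, 2 to 5 other bZIP genes rose and 2 to 5 other immediate early genes fell. Without division by length, the difference in family share, oe-AQP1 minus oe-NC, was 8.69 percentage points for Fos, -2.84 for Fosl1, -5.67 for Fosl2, 3.19 for Jun and -11 for Jund. The cause of these shifts was not tested.

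Same-numbered samples did not deviate together (correlations 0.009, -0.004 and -0.068). Correlations between differently numbered samples of the 2 groups ran from -0.049 to 0.057. No pairing by number was thus seen in the values, which cannot show whether samples were handled in pairs. The replicate block gave 4825 calls over all genes against 5050. Genes called with an absolute log2FC above 1 numbered 812, and 482 where at least 10 counts were required in every sample. Fosb and Egr2 are limited by depth.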
